A study of Homo sapiens with 6 samples.

Results

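Peroxisome proliferator-activated receptors (PPARs) are nuclear receptors that bind fatty acids, pair with a retinoid X receptor (RXR) and switch on genes for burning, carrying and storing fat. ANGPTL4, a secreted inhibitor of lipoprotein lipase, is a well-known target of this pathway, and so are PDK4, PLIN2 and CPT1A. Podocytes are the epithelial cells that wrap the kidney's filtering capillaries, and secreted ANGPTL4 has been studied in nephrotic syndrome. The 10 genes described here are the receptors PPARA, PPARD and PPARG together with ANGPTL4, PDK4, PLIN2, CPT1A, CPT2, ACADVL and FABP3. They were selected by gene symbol, by a choice made with the deposited fold changes between the groups in view, and all 10 were found among the 20745 genes of the table.

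The cells were AB 8/13, 1 conditionally immortalized human podocyte line that divides at the permissive temperature and was differentiated at the restrictive one before the experiment. There were 3 vehicle cultures and 3 cultures given 1 µM levamisole, an anthelminthic drug also used in childhood nephrotic syndrome, for 24 h. Within each group the 3 cultures came from different passages, and whether the groups shared passages is not given in the sources used here. The treatment protocol in the labels places both groups in medium without serum, whereas the study's methods describe the vehicle cultures in complete medium. This difference was not resolved here. Both groups carry the line's temperature-sensitive immortalizing gene.

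The level used throughout is the base mean, the authors' mean of normalised read counts per gene over all libraries of their fit. It is 1 pooled value per gene, with no value per culture, so no SD, interval or n can be given and the depth of each library is unknown. The table's remaining numeric columns hold the authors' own comparison of levamisole with vehicle and were not used, so nothing below says whether a gene rose or fell with levamisole. All order and ratio statements are therefore descriptions of pooled levels, and whether neighbouring genes differ beyond the spread between cultures was not tested. The pool may also be wider than the 6 cultures. All 1009 base means under 0.4 differed from each other, whereas up to 4 reads spread over 6 libraries can be arranged in only 209 ways. That limit of 4 reads assumes that no library was scaled down by much more than its neighbours. The comparison also takes whole reads and the same scaling factor for every gene of a library. Why no values were tied was not tested. Of the sum of all base means, 34.8% lay in 22 mitochondrial genes.

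The 10 genes spanned a wide range of levels. ACADVL was the most abundant, with a base mean of 261, and PDK4 the least, with 2.89, a ratio of 90.2 in base mean and of 85.1 per kilobase of exon. Of the 10 genes, 8 reached a base mean of 5, against 64.3% of all genes in the table. This minimum was set on the pooled mean and is not the same as the study's filter of 5 reads per gene in each sample. The median base mean was 58.3 for the 10 genes and 21.8 for the whole table, and 7 of the 10 lay above the table's median. Together they took 0.0128% of the summed base means. ACADVL, PLIN2 and ANGPTL4 made up 69.4% of that sum. Longer transcripts can collect more reads, although reads of this 3′-end protocol fall mostly near the end of a transcript whatever its length, so levels are given on both scales. Per kilobase of exon, 5 of the 10 genes lay above the table's median of 5.53.

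**Figure D1:**
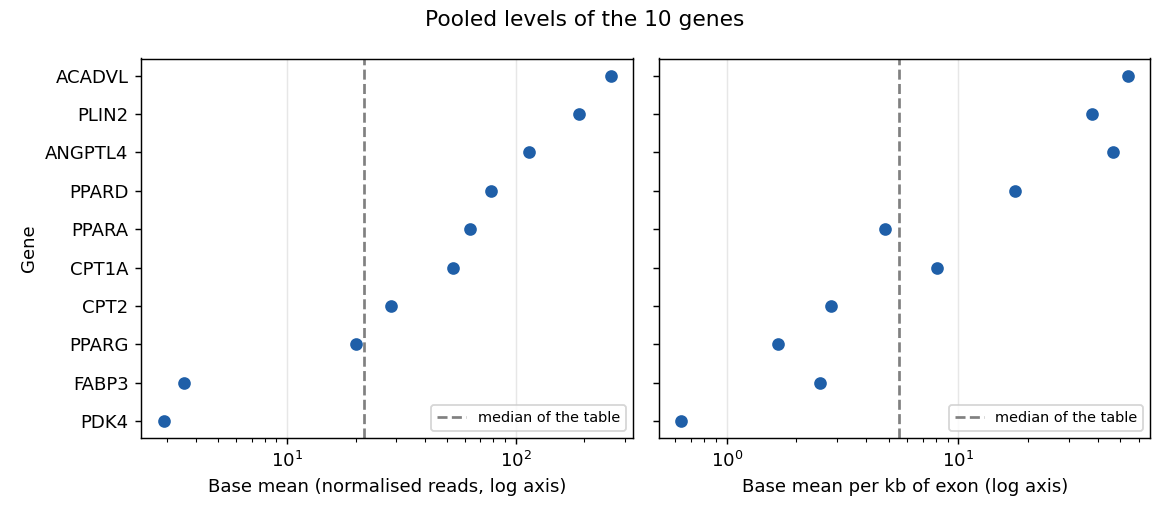
Points give the authors' pooled base mean (left) and the base mean per kilobase of exon (right) of each of the 10 genes on log axes, and the dashed lines give the medians of all genes. ACADVL is highest and PDK4 lowest on both scales, whereas PPARA lies above the median on the left and below it on the right.

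**Figure D2:**
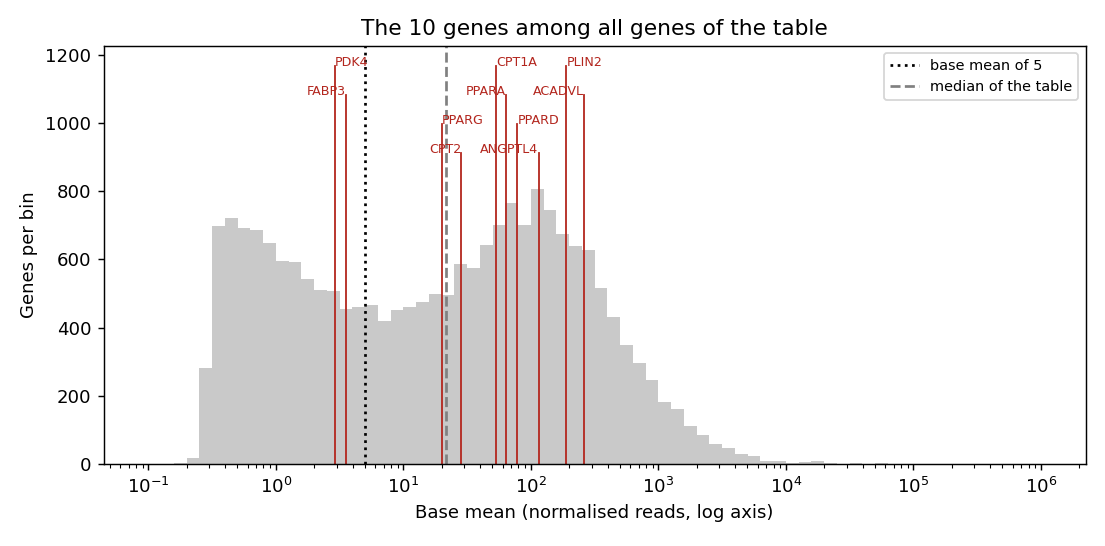
The grey histogram counts all 20745 genes by base mean on a log axis, red lines mark the 10 genes, and the dotted and dashed lines mark a base mean of 5 and the median of 21.8. FABP3 and PDK4 fall to the left of the dotted line, and the other 8 genes to the right of it.

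The 3 receptors were all detected. PPARD (ENSG00000112033, chromosome 6 of GRCh38, 35342558 to 35428191, plus strand) had a base mean of 78.2, higher than 66.9% of the genes in the table. PPARA (ENSG00000186951, chromosome 22, 46150521 to 46243755, plus strand), the receptor best known for fat oxidation in liver, had a base mean of 63.5, at percentile 63.6. PPARG (ENSG00000132170, chromosome 3, 12287368 to 12434356, plus strand), the receptor that drives fat cell formation, had a base mean of 20.0, at percentile 49.1. PPARD was therefore 3.92 times PPARG in base mean and 10.5 times PPARG per kilobase. PPARA exceeded PPARG 3.18 times in base mean and 2.88 times per kilobase. Between PPARD and PPARA the ratio depended on the scale, at 1.23 in base mean and 3.66 per kilobase, since the annotated exons of PPARA cover 13216 bases and those of PPARD 4457.

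Of 14 listed partners and cofactors of the PPARs, 13 had a value, and all 13 lay above both a base mean of 5 and the table's median. The RXR partners RXRA and RXRB had base means of 57.3 and 30.6, while RXRG was not analysed here. Per kilobase the order of the pair was the reverse, with 4.74 for RXRA and 7.84 for RXRB, and both lay under the 17.6 of PPARD. The corepressor NCOR1 and the acetyltransferase EP300 led the list, with base means of 648 and 587. PPARGC1A, a coactivator of mitochondrial biogenesis, had a base mean of 46.7.

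ANGPTL4 (ENSG00000167772, chromosome 19, 8363289 to 8374370, plus strand) had a base mean of 115, higher than 73.1% of the genes. Its exons are short, 2475 bases in all, and per kilobase it reached 46.5, at percentile 83.7 and second among the 10 genes. By pooled base mean it was the most abundant of the angiopoietin-like genes with a value. A pooled mean can lie far from the level of either group. Whether the order and ratios given here for ANGPTL4 hold within the vehicle or the levamisole cultures was therefore not tested. ANGPTL2, a secreted relative, had a base mean of 33.5, and ANGPTL4 exceeded it 3.43 times in base mean and 5.03 times per kilobase. ANGPTL6 and ANGPTL7 had base means of 1.85 and 0.564, and ANGPTL1, ANGPTL5 and ANGPTL8 were not analysed here. Lipoprotein lipase (LPL), the enzyme that ANGPTL4 inhibits, had a base mean of 3.27, and ANGPTL4 exceeded it 35.1 times in base mean and 58.7 times per kilobase. In the list of genes around lipoprotein lipase, 3 of the 6 with a value reached a base mean of 5. The highest were PNPLA2, the lipase that starts the breakdown of stored fat, with 1178, and LIPG, the endothelial lipase, with 225. GPIHBP1, which anchors lipoprotein lipase on capillaries, was not analysed here.

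PDK4 (ENSG00000004799, chromosome 7, 95583499 to 95596516, minus strand) is a kinase that shuts off pyruvate dehydrogenase and so turns a cell from glucose towards fat. Its base mean of 2.89 was under the minimum of 5 and higher than 30.4% of the genes. Per kilobase its percentile was 18.4. The other 3 kinases of the family were far more abundant. PDK2 had a base mean of 155, PDK1 of 95.0 and PDK3 of 42.9, which is 53.7, 32.9 and 14.9 times PDK4. Per kilobase these ratios were 44.6, 10.1 and 3.87, so PDK4 was lowest of the 4 on both scales. The opposing phosphatases PDP1 and PDP2 had base means of 153 and 52.4, and 5 of the 6 genes in this list reached the minimum.

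PLIN2 (ENSG00000147872, chromosome 9, 19108375 to 19149290, minus strand) coats lipid droplets in most cell types. Its base mean of 190 was higher than 80.6% of the genes. PLIN3, the other widely expressed perilipin, led the droplet list with a base mean of 244, and the ratio of PLIN2 to PLIN3 was 0.780 in base mean and 0.426 per kilobase. The perilipins of fat cells and muscle were low, with base means of 0.351 for PLIN1, 1.46 for PLIN4 and 1.21 for PLIN5. G0S2, an inhibitor of PNPLA2, had a base mean of 95.9. CIDEA and CIDEC, droplet proteins of fat cells, were not analysed here. Of the 8 genes of the droplet list with a value, 5 had a base mean of at least 5.

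CPT1A (ENSG00000110090, chromosome 11, 68754620 to 68844410, minus strand) attaches fatty acids to carnitine at the outer mitochondrial membrane, the rate-limiting step of their entry. It had a base mean of 53.2, at percentile 61.1. CPT2 (ENSG00000157184, chromosome 1, 53196792 to 53214197, plus strand) reverses the attachment inside, and had a base mean of 28.4, at percentile 53.0. CPT1A exceeded CPT2 1.87 times in base mean and 2.87 times per kilobase. The carrier between them, SLC25A20, had a base mean of 43.3, between the pair, but per kilobase it exceeded both, at 22.8 against 8.09 and 2.82. CRAT, which makes short acylcarnitines, and SLC22A5, which imports carnitine, had the highest base means of the carnitine list, 84.0 and 70.0. All 5 carnitine genes with a value lay above the table's median in base mean, and CPT1B and CPT1C were not analysed here. On the opposite strand, exons of other genes share bases with the last 500 exonic bases of CPT2, 99 with CZIB and 78 with a long non-coding RNA gene. HTSeq's default setting reads strand, so such reads should count only for their own strand, but this was not tested.

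ACADVL (ENSG00000072778, chromosome 17, 7217125 to 7225266, plus strand), the very long chain acyl-CoA dehydrogenase, takes the first step of mitochondrial beta-oxidation for the longest fatty acids. It had a base mean of 261, higher than 85.0% of the genes, and led the 10 genes also per kilobase, with 54.1. It did not stand apart from the other enzymes of the spiral. Of 15 genes in the mitochondrial beta-oxidation list, 14 had a base mean of at least 5 and the same 14 lay above the table's median, with a list median of 244. ECI2 and HADHB were the most abundant, with base means of 618 and 434. HADHA, the partner subunit of HADHB, had a base mean of 253, and the ratio of HADHA to ACADVL was 0.973 in base mean and 1.08 per kilobase. Among the dehydrogenases of shorter chains, ACADM had a base mean of 114, while ACADS, at 4.88, was the list's 1 gene under the minimum. ACADVL exceeded ACADM 2.29 times in base mean and 6.53 times per kilobase. The peroxisomal branch had a lower list median, 47.5 in base mean and 8.35 per kilobase against 244 and 30.1 for the mitochondrial list, and all 9 of its genes with a value reached the minimum. ABCD3, which carries acyl-CoAs into the peroxisome, had a base mean of 288. ABCD2 was not analysed here.

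FABP3 (ENSG00000121769, chromosome 1, 31365253 to 31376850, minus strand), the heart-type fatty acid binding protein, had a base mean of 3.53, under the minimum and higher than 32.5% of the genes. None of the 3 members of its family with a value reached 5. FABP5, the epidermal type, had a base mean of 4.84, and FABP6 of 0.566. Per kilobase FABP5 and FABP3 were nearly level, with a ratio of 1.00. The GENCODE annotation names 16 pseudogenes after FABP5 and 1 after FABP3, and reads shared with such copies can be left uncounted, so these 2 levels are uncertain. FABP1, FABP2, FABP4, FABP7, FABP9 and FABP12 were not analysed here. Among genes for uptake and activation of fatty acids, 9 of 12 reached a base mean of 5. ACSL4 and ACSL3, which activate fatty acids by joining them to coenzyme A, had base means of 681 and 381, whereas the uptake receptor CD36 had 8.75. Of 8 further PPAR targets with a value, 6 reached the minimum, led by UCP2 with 516 and TXNIP with 361. CYP4A11, CREB3L3 and FGF21 were not analysed here.

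**Figure D3:**
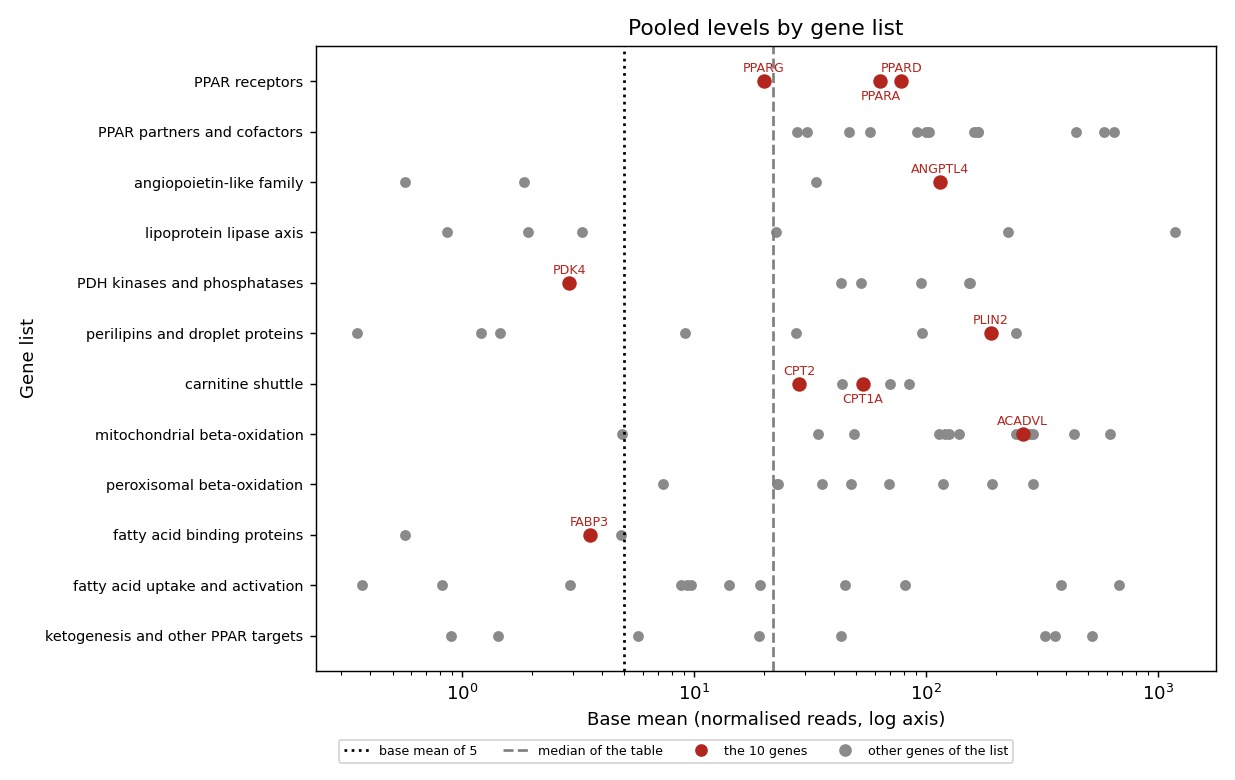
Each point is a gene of a list, placed by its base mean on a log axis, with the 10 genes in red and the other genes of each list in grey, and the lines mark a base mean of 5 and the table's median. ANGPTL4 is the rightmost point of its family and PDK4 the leftmost point of its list, while ACADVL lies among the other beta-oxidation genes.

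Over all 12 lists, 92 of 113 genes had a base mean, and 74 had one of at least 5. Without the 10 genes, the other 82 genes with a value had a median base mean of 50.7, near the 58.3 of the 10.

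The labelled cell type was checked against marker genes. Of 9 podocyte markers with a value, 7 had a base mean of at least 5, and their summed base mean was 2023. The cell cycle inhibitor CDKN1C and the adaptor CD2AP, which other cells also express, made up most of it, with base means of 1019 and 929. SYNPO, a podocyte actin protein, had 22.8, PLA2R1 21.8, PODXL 15.3, TCF21 7.20 and WT1 6.21, while PTPRO had 0.333. The slit diaphragm gene NPHS1 and the transcription factor LMX1B were not analysed here, so the label could not be checked on the genes that define podocytes most narrowly. Markers of fat cells, muscle and macrophages, where these genes are prominent, were low. None of the 2 fat cell markers with a value reached a base mean of 5, with LPL the higher at 3.27. None of the 3 muscle markers did, with CKMT2 the highest at 1.41, nor any of the 4 macrophage markers, with CD14 the highest at 2.40. Of the hepatocyte markers, SERPINA1 had 653 and TTR 5.70, and ALB, APOA1, APOB and FABP1 were not analysed here. Of the proximal tubule markers, AQP1 had 243 and GGT1 14.8, CUBN, SLC34A1 and SLC5A2 all lay under the minimum of 5, and LRP2 was not analysed here.

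PPARs bind DNA with RXR at a repeat of the letters AGGTCA with 1 base between the copies, AGGTCANAGGTCA, where N is any base. This repeat was searched on both strands with at most 2 of its 12 fixed letters different. In the RefSeq promoters of the build GRCh38.p14, windows of 250 bases before to 50 bases after a gene start, the repeat was found in 2.97% of all 35116 windows. It was found in 0 of the 17 windows of the 10 genes. A single copy, AGGTCA or TGACCT on the other strand, which every exact repeat also holds, was in 13.8% of all windows. Among the 10 genes it was in 3 of the 6 windows of PPARG and in no window of the other 9 genes.

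Within the gene bodies on GRCh38, from first to last annotated base, the 10 genes held 42 matches in 517811 bases, or 8.11 per 100 kb. The 20554 genes of the table with a GENCODE position on an autosome or chromosome X held 9.65 per 100 kb. With at most 1 letter different there were 3 matches in the 10 genes, or 0.579 per 100 kb against 0.781 over those 20554 genes, and 0 exact ones. The 1 match in ANGPTL4 and 2 of these 3 closest matches are shown to give the letters behind these counts, with both copies of the repeat in capitals, 5′ to 3′ on the strand of the match. The match in ANGPTL4 lies in an intron at chr19:8371033-8371045 on the minus strand and has 2 letters different. The 2 close matches, with 1 letter different, lie in introns of CPT1A at chr11:68831325-68831337 on the plus strand (site 1) and at chr11:68835830-68835842 on the minus strand (site 2).
ANGPTL4: ccagaaAGGTACaAGGTCAccagga
CPT1A site 1: gaaagcAGGTGAaAGGTCAgcttga
CPT1A site 2: tgctcaAGGTCAcAGGTCTgagtaa

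The 4 longest genes held the most matches, with 11 in CPT1A, 8 each in PPARA and PPARD and 6 in PPARG. PLIN2 and FABP3 held 3 each and ACADVL 2, while CPT2 and PDK4 held 0. A match of letters is a description of the sequence and says nothing about binding of a receptor in these cells.

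**Figure D4:**
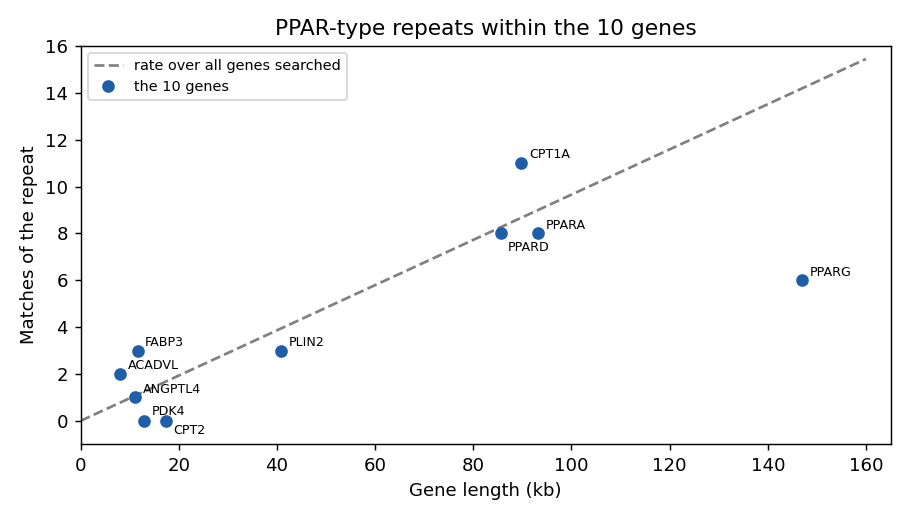
Points give the number of matches of the repeat (at most 2 letters different) in each of the 10 genes against gene length in kilobases, and the dashed line gives the rate over the 20554 genes searched, 9.65 per 100 kb. CPT1A lies above the line with 11 matches and PPARG below it with 6.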

How the data were processed

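RNA of 6 cultures of AB 8/13 podocytes was sequenced by a modified CEL-seq method. According to the study's methods and the submitters' processing notes, the authors trimmed reads with Trim Galore 0.4.5 (cutadapt 1.18, FastQC 0.11.8), aligned them to GRCh38 with STAR 2.7.5a, counted them with HTSeq 0.11.0 and ran DESeq2 1.22.0 in R 3.5.3. The authors deposited 1 table. Its base mean is a pooled signal in normalised counts, deposited by the authors without values per culture. Its log2 fold changes, standard errors, statistics and p-values are the authors' own comparison of the groups and were not used, printed or tested. No test was therefore made between vehicle and levamisole.

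Percentiles (the share of genes with a lower base mean), shares, ratios and counts at a base mean of at least 5 were computed with Python 3.11.15, numpy 2.4.6 and pandas 2.3.3, and drawn with matplotlib 3.10.9. The percentile step was tested on simulated data. Exonic lengths and positions came from the GENCODE annotation in its release 44, which matched 20599 of the 20745 gene identifiers and is later than the authors' annotation. The other 146 have no value per kilobase. Exonic length joins all annotated transcripts. The 10 genes and all lists were chosen with earlier results of these data known. The genes named were the 10, the 2 highest of each list and the genes with no value; other genes of a list were picked with their values in view. Some genes of the lists and some matches are counted but not reported singly here. Alternatives were other minimums, levels per kilobase and the omission of mitochondrial genes.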

Additional observations from a re-analysis of the deposited data

How the results depend on the processing

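The median percentile of the 10 genes by base mean was 62.4. It was 46.0 when the ranking kept only genes at a base mean of 5 or more (8 of the 10 genes) and 51.9 per kilobase, and it did not move at 3 significant digits without mitochondrial genes. Per kilobase, 5 of the 10 single percentiles were lower and 5 higher, by -17.3 to 10.6 points. The share of the summed base means was 0.0197% without mitochondrial genes and kept 3 significant digits when genes under 5 were left out. The 74 list genes at a minimum base mean of 5 became 85 at 1, 68 at 10 and 47 at 50, and the 8 of the 10 genes became 10, 8 and 6.

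No paired analysis was possible because the base mean holds no value per culture. For the same reason the omission of single cultures was not run, nor were the planned values per library with another scaling or with a library left out. The depth behind PDK4 and FABP3, both under a base mean of 5, is the thinnest of the 10, and their order is a difference of less than 1 normalised read.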
